A study of Mus musculus with 2 samples.

Results

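The genes described here are 44 mouse genes for chaperones, the chaperonin ring and protein folding in the endoplasmic reticulum (ER), taken from a fixed list of symbols and not by their levels. They are 44 of the 43346 Ensembl genes in the deposited tables. The genes fall into 8 groups by role: 9 cytosolic HSP70 and HSP90 chaperones, 5 cochaperones, 2 heat shock factors, 1 small heat shock protein, 7 J proteins, 8 subunits of the CCT ring, 4 mitochondrial chaperones and 8 folding factors of the ER. A symbol placed 43 of them in the tables, and Hspa14 was taken as the sum of its annotated transcripts.

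Both libraries came from primary megakaryocytes, the blood cells that shed platelets, taken from mouse embryos at 14.5 days with males and females pooled, and were made from polyadenylated RNA. They form 1 group with no treatment and no control. The labels number them as biological replicates 1 and 2 but cite 1 biosample and 1 donor entry on the pair, so whether their spread is biological or technical is unclear. Replicate 1 held 42099216 expected counts and replicate 2 held 2275922, so that replicate 1 was sequenced 18.5-fold deeper. The limit that a count of 0 sets is 3 counts, equal to 0.0713 CPM in replicate 1, against 1.32 CPM in replicate 2, where CPM is the count divided by the library size and scaled.

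HSP70 proteins bind exposed hydrophobic stretches of unfolded chains in a cycle driven by ATP; J proteins load the client and nucleotide exchange factors release it. HSP90 takes over clients near the native state, while the CCT ring encloses actin and tubulin, the cytoskeletal proteins that a megakaryocyte needs for its long platelet-forming processes. In the ER, BiP, GRP94, the lectin chaperones and the protein disulfide isomerases fold the integrins, glycoproteins and granule proteins that platelets carry, and platelets are known to release disulfide isomerases on activation.

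Many chaperone genes are known to carry heat shock elements, the sites of HSF1, and many ER folding genes carry the ER stress element, read by ATF6 with NF-Y. RefSeq promoter windows on GRCm38.p6, from 250 bases before to 50 bases after a start site, were found for 37 of the 44 genes, and no window was read for Hspa8, Hsp90aa1, Hsp90ab1, St13, Hsf1, Cct4 and Hspa9. The ER stress element was searched on both strands as CCAAT and CCACG separated by 9 bases. It lay in the windows of 5 of the 37 genes (13.5%), against 0.137% of 27025 genes with a window. All 5 belong to the 8 ER folding genes, which were all read. The stretches around it are shown because they are the sequence feature that these ER genes share; capitals mark the element, read 5′ to 3′ on the strand of the gene, and Hsp90b1 holds it at both ends of the printed stretch.
Hspa5, chr2:34772015-34772053, plus strand: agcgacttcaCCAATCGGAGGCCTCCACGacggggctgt
Hsp90b1, chr10:86705523-86705666, minus strand: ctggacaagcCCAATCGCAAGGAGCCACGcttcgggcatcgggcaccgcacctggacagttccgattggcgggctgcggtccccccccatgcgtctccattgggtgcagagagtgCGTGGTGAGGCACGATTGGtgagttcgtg
Calr, chr8:84847065-84847103, minus strand: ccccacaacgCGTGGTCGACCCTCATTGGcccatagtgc
Canx, chr11:50325790-50325828, minus strand: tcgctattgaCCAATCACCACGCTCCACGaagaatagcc
Pdia6, chr12:17266481-17266519, plus strand: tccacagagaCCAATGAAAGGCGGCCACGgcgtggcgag
The other 3 ER folding genes, Pdia3, Pdia4 and P4hb, have no such letters in their windows.

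A pair of heat shock units was searched as GAANNTTC or TTCNNGAA, patterns that are each their own reverse complement, so that 1 search covers both strands. It lay in the windows of 13 of the 37 genes (35.1%), against 17.0% of all genes with a window. These 13 were Hspa1a, Hspa1b, Hsph1, Bag3, Hspb1, Dnaja1, Dnajb4, Dnajb6, Cct2, Cct5, Cct6a, Hspd1 and Hspe1, and none was an ER folding gene. A run of 3 such units, which contains the pair, was found in Hsph1, Dnajb6, Hspd1 and Hspe1, 4 of the 37 genes (10.8%), against 0.662% of all genes with a window. The run of Hsph1 lies after its start sites. The other 3 are shown, with the run and any unit joined to it in capitals. Hspd1 and Hspe1, which encode the mitochondrial chaperonin HSP60 and its lid HSP10, stand head to head on chromosome 1, so the stretch printed for each is the same piece of DNA read from opposite strands.
Dnajb6, chr5:29735842-29735874, plus strand: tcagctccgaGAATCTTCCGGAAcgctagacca
Hspd1, chr1:55088049-55088086, minus strand: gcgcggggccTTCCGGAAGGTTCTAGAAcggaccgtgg
Hspe1, chr1:55088049-55088086, plus strand: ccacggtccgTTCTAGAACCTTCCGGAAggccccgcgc
These matches describe letters in a window, and binding was not measured.

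Levels are given as TPM, transcript abundance after division by effective length, scaled to a fixed total. A mean of at least 1 TPM over both libraries was reached by 41 of the 44 genes, against 22.7% of all 43346 genes. Only Hspa4l, Hsf2 and Hspb1 stayed under it. By library, 42 genes reached 1 TPM in replicate 1 and 38 in replicate 2. Every gene had counts in replicate 1, while Hspa4l, Hsf2, Hspb1, Dnajb4 and Pdia4 had 0 counts in replicate 2. The median over the 44 genes was 39.9 TPM in replicate 1, against 13.6 TPM in replicate 2, against 11.3 and 7.54 TPM for the 9858 genes at a mean of at least 1 TPM. Together the 44 genes made up 5429 TPM, which is 0.543% of the transcripts, in replicate 1 and 7249 TPM, or 0.725%, in replicate 2. The 5 highest took 58.9% of that sum in replicate 1 (P4hb, Hspa8, Calr, Hsp90ab1 and Bag1) and 80.4% in replicate 2 (P4hb, Pdia3, Hspa8, Bag1 and Dnajb6). Across the 44 genes the order of levels in the libraries had a Spearman rho of 0.828, against 0.764 across the 9858 genes; both describe genes of the same pair of libraries.

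**Figure D1:**
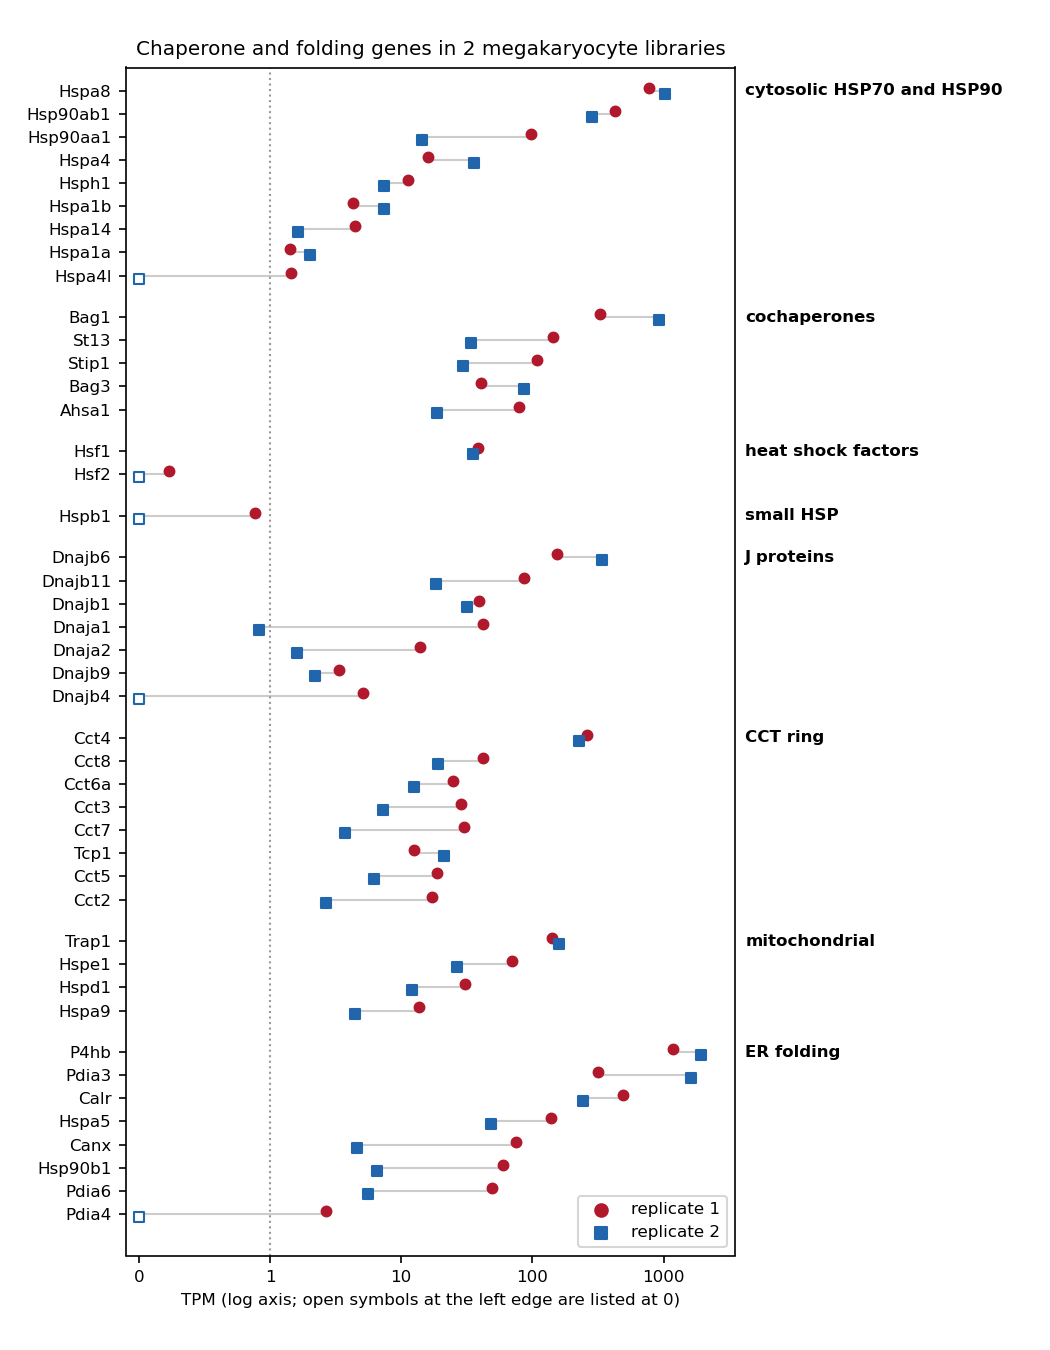
TPM of each of the 44 genes on a log axis, replicate 1 as circles above and replicate 2 as squares below, grouped by role and ordered by mean TPM within a group. P4hb is the highest gene, at 1178 TPM in replicate 1, against 1929 TPM in replicate 2, and 5 genes are listed at 0 in replicate 2 (open squares).

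Among the cytosolic HSP70 and HSP90 genes the constitutive forms lay above the stress-inducible ones. Hspa8, the constitutive HSP70, stood at 779 TPM in replicate 1, against 1023 TPM in replicate 2, a mean of 901 ± 172 TPM (SD, n = 2). Hspa1a and Hspa1b, the heat-inducible HSP70 genes, stood at 1.42 and 4.26 TPM in replicate 1 and at 2.01 and 7.39 TPM in replicate 2. Hspa8 was thus 137 times the sum of both in replicate 1 and 109 times in replicate 2. Those 2 genes are near-identical neighbours on chromosome 17, so how reads were split between them is uncertain, while their sum is less so. The gap depends on the transcripts counted: over transcripts annotated as coding, Hspa8 was 53.7 times the sum of both in replicate 1 and 3.64 times in replicate 2, because most of its TPM lay on a transcript annotated with a retained intron (described with the transcripts).

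The HSP90 pair showed the same order. Hsp90ab1, the constitutive HSP90, had 426 TPM in replicate 1, against 286 TPM in replicate 2. Hsp90aa1, the inducible form, had 97.5 TPM in replicate 1, against 14.5 TPM in replicate 2. The quotient of these levels was 4.37 in replicate 1 and 19.7 in replicate 2, and over coding transcripts 10.7 and 21.7, so Hsp90ab1 was the higher of the pair in both libraries on either scale. The HSP110 family serves as nucleotide exchange factors. Its member Hspa4 had 16.1 TPM in replicate 1, against 35.7 TPM in replicate 2, Hsph1 had 11.3 and 7.44 TPM in the same order, and Hspa4l had 1.45 TPM (122 counts) in replicate 1 and 0 counts in replicate 2. Hspa14, an HSP70 relative that works at the ribosome, had 4.41 TPM in replicate 1, against 1.63 TPM, from 5 counts, in replicate 2.

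The cochaperones had a median of 109 TPM in replicate 1, against 34.3 TPM in replicate 2. Bag1, a nucleotide exchange factor of HSP70, was the highest of them with 325 TPM in replicate 1, against 927 TPM in replicate 2. Bag3, which links HSP70 to autophagy, had 40.4 TPM in replicate 1, against 85.9 TPM in replicate 2, so both BAG genes were lower in replicate 1. The adaptors went the other way: St13 (Hip) had 144 TPM in replicate 1, against 34.3 TPM in replicate 2, and Stip1 (Hop), which joins HSP70 to HSP90, had 109 TPM in replicate 1, against 29.8 TPM in replicate 2. Ahsa1, which stimulates the HSP90 ATPase, had 79.7 TPM in replicate 1, against 18.9 TPM in replicate 2.

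Hsf1, the main heat shock factor, was among the steadiest members, with 38.8 TPM in replicate 1, against 35.4 TPM in replicate 2. Hsf2 had 0.17 TPM, from 17 counts, in replicate 1 and 0 counts in replicate 2. The small heat shock protein Hspb1, a chaperone that also binds actin filaments, had 0.77 TPM, from 24 counts, in replicate 1 and 0 counts in replicate 2. Neither gene was detectable at the depth of replicate 2.

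Of the J proteins, which stimulate the ATPase of HSP70, Dnajb6 led with 155 TPM in replicate 1, against 341 TPM in replicate 2. Dnajb11, a J protein of the ER that works with BiP, had 85.9 TPM in replicate 1, against 18.5 TPM in replicate 2. Dnajb1, the usual partner of HSP70 in disaggregation, had 39.4 TPM in replicate 1, against 31.8 TPM in replicate 2. These 3 were clearly present in both libraries, and Dnajb1 differed least. The remaining 4 were sparse in replicate 2: Dnaja1 had 41.9 TPM in replicate 1, against 0.83 TPM, from 5 counts, in replicate 2. Dnaja2 had 13.8 TPM in replicate 1, against 1.60 TPM, from 8 counts, in replicate 2. Dnajb9, another J protein of the ER, had 3.36 TPM in replicate 1, against 2.19 TPM, from 7 counts, in replicate 2. Dnajb4 had 5.15 TPM in replicate 1 and 0 counts in replicate 2.

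The 8 CCT subunits occur once each in a ring, but their transcript levels were not even. Cct4 stood apart at 263 TPM in replicate 1, against 226 TPM in replicate 2, a mean of 244.5 ± 26.0 TPM (SD, n = 2). The other 7 lay between 12.4 TPM (Tcp1) and 42.4 TPM (Cct8) in replicate 1, and between 2.67 TPM (Cct2) and 21.3 TPM (Tcp1) in replicate 2. By mean TPM the highest subunit was 24.5 times the lowest (Cct4 over Cct2), with 21.1 times in replicate 1 and 84.7 times in replicate 2. Without Cct4 the quotient was 3.09 by mean TPM (Cct8 over Cct2), 3.41 in replicate 1 (Cct8 over Tcp1) and 7.98 in replicate 2 (Tcp1 over Cct2).

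The place of Cct4 rests on short transcripts. Its coding transcripts held 8.66 TPM in replicate 1, against 0 TPM in replicate 2; nearly all the rest lay on Cct4-203 and Cct4-205, of 465 and 581 bases, both annotated as targets of nonsense-mediated decay. With counts divided by the length of the longest annotated transcript, Cct4 was still the highest subunit, at 44.2 counts per kilobase and library total, scaled as CPM, in replicate 1 and 26.7 in replicate 2, while Cct8 had 36.4 in replicate 1 and 14.7 in replicate 2. On that scale the highest over lowest subunit was 11.8 (Cct4 over Cct3), and 8.52 without Cct4 (Cct8 over Cct3). Cct6a has 1 transcript in the deposited tables, which the later annotation types as a processed transcript, so it counts as 0 in the coding view. Tcp1, the first subunit, was the only one of the 8 that was lower in replicate 1 than in replicate 2 on all 3 scales.

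**Figure D2:**
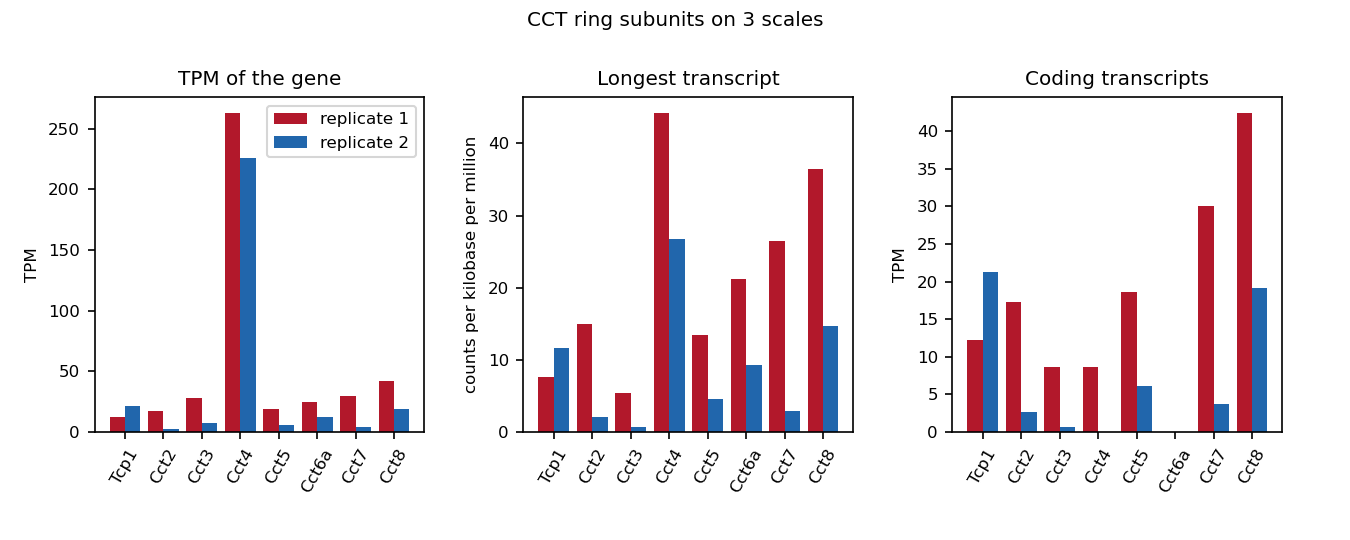
Levels of the 8 CCT subunits on 3 scales that start at 0, replicate 1 left of replicate 2: TPM of the gene, counts per kilobase of the longest transcript scaled as CPM, and TPM of coding transcripts. Cct4 towers over the ring in TPM (263 in replicate 1 and 226 in replicate 2), comes closer to Cct8 in the middle panel and falls to 8.66 and 0 TPM in coding transcripts.

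Among the mitochondrial chaperones Trap1, the HSP90 of the matrix, was highest in TPM of the gene, with 141 TPM in replicate 1, against 158 TPM in replicate 2. That order depends on short transcripts: over coding transcripts Trap1 had 23.3 TPM in replicate 1, against 5.48 TPM in replicate 2, below Hspe1 and Hspd1 in both libraries, and per kilobase of the longest transcript its mean was 27.4, against 31.8 for Hspe1. Hspe1 had 69.9 TPM in replicate 1, against 26.6 TPM in replicate 2, and its partner Hspd1 had 30.4 and 12.2 TPM in the same order. The quotient of Hspd1 to Hspe1 was 0.435 in replicate 1 and 0.457 in replicate 2, the latter from 34 and 31 counts. On coding transcripts the quotient was 0.849 in replicate 1 and 0.457 in replicate 2. Whether the pair kept its proportion thus depended on the transcripts counted, and a part of the shared promoter region was not tested. Hspa9, the mitochondrial HSP70, had 13.8 TPM in replicate 1, against 4.45 TPM in replicate 2. Of the 12 listed copies with a pseudogene name, Hspd1-ps3 had 37.9 counts and Hspd1-ps4 had 12 counts in replicate 1 and both had 0 counts in replicate 2, against 2489 counts of Hspd1 in replicate 1 and 34 in replicate 2; the other 10 copies had 0 counts in both libraries.

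The ER folding genes held the highest levels in TPM of the gene. P4hb (ENSMUSG00000025130, chr11:120560298-120573253 on GRCm38, minus strand), the protein disulfide isomerase PDI, had 1178 TPM in replicate 1, against 1929 TPM in replicate 2 and ranked 102 among the 9858 genes. Pdia3, the isomerase ERp57 that works with the lectin chaperones, had 316 TPM in replicate 1, against 1606 TPM in replicate 2. Calr, the soluble lectin chaperone calreticulin, had 491 TPM in replicate 1, against 242 TPM in replicate 2. Its membrane-bound relative Canx had 75.2 TPM in replicate 1, against 4.62 TPM in replicate 2, so Calr was 6.53 times Canx in replicate 1 and 52.4 times in replicate 2. Over coding transcripts Calr was 28.9 times Canx in replicate 1 and 72.0 times in replicate 2, and per kilobase of the longest transcript 20.6 and 71.3 times. In TPM of the gene P4hb and Pdia3 were lower in replicate 1, while Calr and Canx were higher there. Over coding transcripts Pdia3 turned, with 45.2 TPM in replicate 1, against 32.6 TPM in replicate 2.

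The general ER chaperones were lower in TPM of the gene than P4hb and Pdia3. Hspa5 (BiP), the ER HSP70, had 140 TPM in replicate 1, against 48.6 TPM in replicate 2, which was 10.2 times and 10.9 times the mitochondrial HSP70 Hspa9. Over coding transcripts it was 5.46 times Hspa9 in replicate 1 and 7.24 times in replicate 2, and per kilobase of the longest transcript 4.37 and 5.78 times. Hsp90b1 (GRP94), which is known to fold integrins, had 59.4 TPM in replicate 1, against 6.59 TPM in replicate 2. Pdia6 had 49.0 TPM in replicate 1, against 5.58 TPM in replicate 2, and Pdia4, a further isomerase, had 2.66 TPM in replicate 1 and 0 counts in replicate 2.

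A dominant transcript, the one with the most TPM, was compared where a gene had 2 or more annotated transcripts and averaged 5 TPM or more, which held for 26 of the 44. It was the same in both libraries for 18 of 26 (69.2%), against 66.2% of 4695 genes under the same rule. The 8 that differed were Hspa4, Hsp90aa1, St13, Dnaja1, Dnajb11, Cct4, Trap1 and Canx. Retained intron, nonsense-mediated decay and processed transcript were counted as types other than coding. In replicate 1 the dominant transcript of 8 of 26 genes (30.8%) was of these types, against 26.9% of 4600 protein-coding genes. In replicate 2 this held for 6 of 26 (23.1%), against 29.7%. Those shares lie near the background. Hspa8, Cct3, Cct4, Trap1 and Pdia3 had such a dominant transcript in both libraries. The dominant transcript of Hsph1 in both libraries is absent from the later annotation, so it has no type here and was not counted.

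The highest members show what this means for a level. Of the Hspa8 level, 60.4% in replicate 1 and 93.2% in replicate 2 lay on Hspa8-207, a transcript of 1152 bases annotated with a retained intron. Of the Pdia3 level, 84.2% in replicate 1 and 98.0% in replicate 2 lay on Pdia3-204, a processed transcript of 400 bases. P4hb-203, of 770 bases and annotated as coding, held 89.4% of the P4hb level in replicate 1 and 97.5% in replicate 2. The level of P4hb on coding transcripts thus rests mostly on this short transcript. The longer coding transcript P4hb-201, of 2861 bases, had 119 TPM in replicate 1, against 49.1 TPM in replicate 2, the opposite direction to the gene. In each of the 3 genes the share of the short transcript was larger in replicate 2. Coding transcripts made up 71.0% of the summed TPM of the 44 genes in replicate 1 and 57.6% in replicate 2. The order of the leaders moved with the scale: on coding transcripts it ran P4hb, Bag1, Calr, Hsp90ab1, Dnajb6, and on counts per kilobase of the longest transcript the order ran Bag1, P4hb, Calr, Hspa8, Hsp90ab1.

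**Figure D3:**
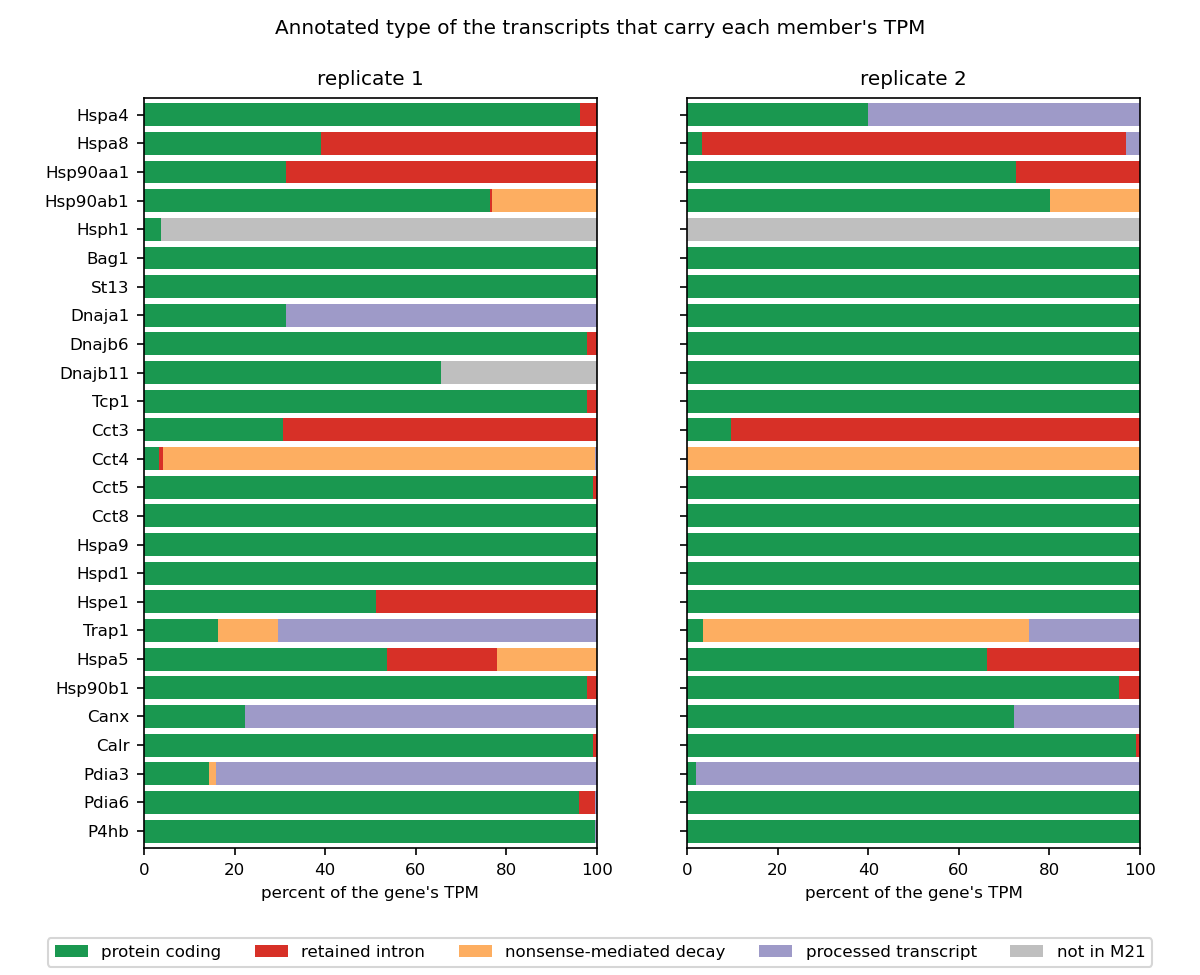
Share of each gene's TPM, in percent, by the annotated type of its transcripts, for the 26 genes compared for their dominant transcript, replicate 1 on the left and replicate 2 on the right. Hspa8 is 39.1% coding in replicate 1, against 3.34% in replicate 2, while Calr stays near 99% in both.

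The libraries were then compared gene by gene as the ratio of replicate 1 over replicate 2 in expected counts scaled by TMM, wherever the mean count was 100 or more. With 1 library on each side there is no test, and the exact 95% intervals (Clopper-Pearson) cover counting error only. Of the 44 genes 40 met the minimum; Hspa1a, Hspa4l, Hsf2 and Hspb1 did not. That minimum is met mainly through the deeper replicate 1, so it favours genes that are high there. At least 2-fold higher in replicate 1 were 20 of the 40 genes (50%), against 33.8% of 8194 genes, and at least 2-fold lower were 7 (17.5%), against 15.7%. The remaining 13 lay within 2-fold. The median log2 ratio was 1.04 over the 40 genes and 0.30 over the 8194, whose quartiles were -0.62 and 1.49.

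The 20 higher genes had few counts in replicate 2. Of them 13 had under 30 counts there, 19 had an interval wholly above 1 and 15 an interval wholly above 2. Dnaja1 had the highest ratio, 16.5 (7.06 to 50.8), from 2067 counts in replicate 1 and 5 in replicate 2. Hsp90b1 was 7.57-fold higher (5.39 to 11.0), from 6263 counts in replicate 1 and 33 in replicate 2. Dnajb4, with 465 counts in replicate 1, and Pdia4, with 245, had 0 in replicate 2. With replicate 2 set to the floor of 3 counts, the ratio was 6.18 for Dnajb4 and 3.26 for Pdia4. The lower ends of their intervals were 5.01 and 2.63, and there was no upper end.

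By group, the higher genes were 3 of 7 cytosolic HSP70 and HSP90 genes (Hspa14, Hsp90aa1, Hsph1), 2 of 5 cochaperones (Stip1, Ahsa1) and 4 of 7 J proteins (Dnaja1, Dnaja2, Dnajb4, Dnajb11). They were also 4 of 8 CCT subunits (Cct2, Cct3, Cct5, Cct7), 3 of 4 mitochondrial genes (Hspa9, Hspd1, Hspe1) and 4 of 8 ER genes (Hsp90b1, Canx, Pdia4, Pdia6). Over all 8194 genes 33.8% were higher. In the same groups, 2 cytosolic genes, 2 cochaperones, 1 J protein, 1 CCT subunit and 1 ER gene were lower. The interval of Hspa14, 0.970 to 7.11, included 1.

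The 7 lower genes were better counted. Bag1 had 14815 counts in replicate 1 and 1980 in replicate 2, a ratio of 0.299 (0.285 to 0.313). Pdia3 had 7543 counts in replicate 1 and 897 in replicate 2, a ratio of 0.335 (0.313 to 0.360). Bag3 followed at 0.398 (0.359 to 0.443), and these 3 had intervals wholly below 0.5. Dnajb6, Hspa4, Tcp1 and Hspa1b lay between 0.461 and 0.494, with intervals that included 0.5. Hspa1b had only 36.5 counts in replicate 2, and the split of its reads from Hspa1a is uncertain. With a prior count of 0.5 it was no longer among the lower genes. Scaled by TMM, the ratio of the summed counts of all 44 genes was 0.919 (0.902 to 0.936), opposite in direction to the median log2 ratio of 1.04. This direction depends on the scaling. By total counts the 44 genes held 0.649% of replicate 1, against 0.521% of replicate 2, and so were higher in replicate 1.

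**Figure D4:**
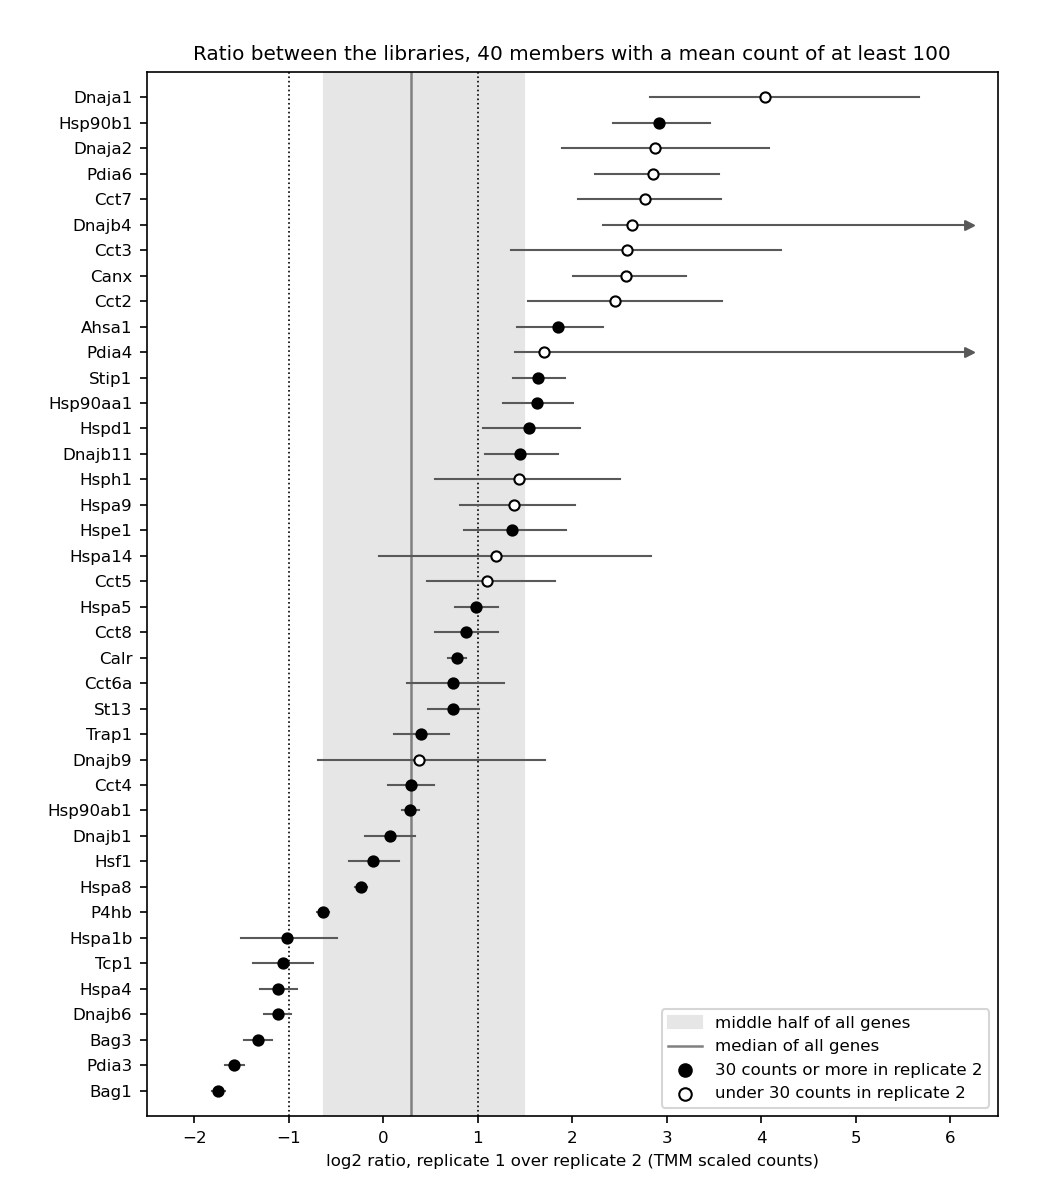
Log2 ratio of replicate 1 over replicate 2 with exact 95% intervals for the 40 genes whose mean count was 100 or more; dotted lines mark 2-fold, the grey line and band the median (0.30) and quartiles (-0.62 and 1.49) of 8194 genes, open circles genes with under 30 counts in replicate 2, and arrows intervals without an upper end. Genes far to the right are mostly open circles, and the 7 genes past 2-fold on the left are all filled.

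Counts and TPM gave differences of unequal size for several genes. The TPM of Pdia3 in replicate 1 was 0.197 times that in replicate 2, and its scaled counts 0.335 times. For St13 the TPM were 4.21 times as high in replicate 1 and the scaled counts 1.66 times. For Canx they were 16.3 and 5.94 times, and for Dnaja1 50.4 and 16.5 times. They lay closer for Hspa4, at 0.450 and 0.463 times, for Cct4, at 1.16 and 1.22 times, and for Bag1, at 0.351 and 0.299 times. Over coding transcripts, however, Hspa4 had 15.5 TPM in replicate 1, against 14.2 TPM in replicate 2. The rest of its level in replicate 2, 21.5 TPM, lay on Hspa4-203, a processed transcript with 0 TPM in replicate 1.

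The ratio also moved with base composition. Over 8171 genes its Spearman rho with the GC content of the longest transcript was -0.30, and over 39 of the chaperone and folding genes it was -0.44. The median GC content was 46.9% in these 39 genes and 51.4% in all. With the median ratio of 20 bins of GC content removed, a step chosen after seeing the data, 11 of 39 genes (28.2%) were at least 2-fold higher in replicate 1, against 25.8% of 8171 genes, and 6 (15.4%) were lower, against 21.3%. The 11 were Ahsa1, Canx, Cct2, Cct3, Cct7, Dnaja1, Dnaja2, Dnajb4, Hsp90b1, Pdia6 and Stip1, all among the 20, and the 6 were the 7 without Hspa1b. The part of base composition in the ratios was not tested further.

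**Figure D5:**
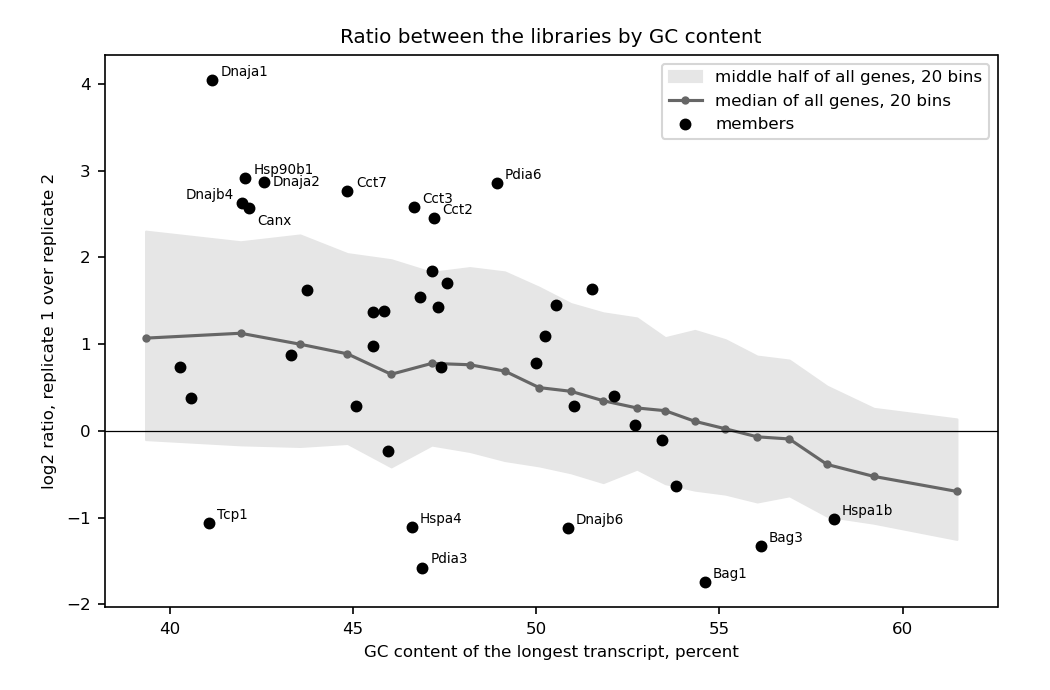
Log2 ratio of replicate 1 over replicate 2 against GC content, in percent, of the longest transcript, for 39 of the genes (black) over the median (line) and quartiles (band) of 8171 genes in 20 bins of GC content. The median falls from about 1 at low GC content to below 0 at high GC content; Tcp1, Pdia3, Hspa4 and Dnajb6 lie well under the line, and Dnaja1, Hsp90b1 and Pdia6 well above it.

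The choice of scaling and minimum mattered as well. With total counts in place of TMM, which raised the median of all genes by 0.44 on the log2 scale, 25 of 40 genes (62.5%) were at least 2-fold higher and 2 (5%), Bag1 and Pdia3, lower, against 43.5% and 7.30% of all genes. With a mean of at least 50 CPM, which weighs both libraries alike, 21 genes remained. Of those 5 (23.8%) were higher (Ahsa1, Dnajb11, Hsp90aa1, Hsp90b1, Stip1), against 15.8% of 2576 genes, and 5 were lower (Bag1, Bag3, Dnajb6, Hspa4, Pdia3), against 26.4%. The median log2 ratio was then 0.29 for the 21 genes and -0.37 for the 2576.

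The labelled cell type was checked against its markers. All 11 megakaryocyte markers compared here (Itga2b, Itgb3, Gp1ba, Gp1bb, Gp9, Gp6, Pf4, Ppbp, Vwf, Tubb1 and Nfe2) reached 1 TPM, with a sum of 16139 TPM in replicate 1, against 20528 TPM in replicate 2. Single markers went both ways in the ratio of scaled counts. Pf4 (4.01), Ppbp (2.17) and Tubb1 (2.32) were at least 2-fold higher in replicate 1. Gp1bb (0.450) and Gp9 (0.340) were at least 2-fold lower, and the others of the 11 lay within 2-fold. Markers of macrophages and granulocytes with a mean count of 100 or more were at least 2-fold higher in replicate 1. By the same rule 33.8% of all 8194 genes were higher. That minimum is met mainly through the deeper replicate 1, so it favours markers that are high there. Of 12 macrophage markers 8 could be compared and all 8 were at least 2-fold higher in replicate 1, with a sum of 975 TPM in replicate 1, against 236 TPM in replicate 2, and Cd163 and Timd4 at 0 in both. Of 12 granulocyte markers 7 could be compared and all 7 were higher, and the 12 summed to 863 TPM in replicate 1, against 152 TPM in replicate 2. Ms4a3, with too few counts to be compared, went the other way, at 0.71 TPM in replicate 1, against 1.97 TPM, from 3 counts, in replicate 2. The 10 erythroid markers summed to 9593 TPM in replicate 1, against 15963 TPM in replicate 2, and the 10 hepatocyte markers to 149 and 79.6 TPM, with Alb at 0 in both. Only 3 of these 10 hepatocyte markers reached a mean of 1 TPM, and the highest alone held 92.5 TPM in replicate 1, against 69.7 TPM in replicate 2. The part of these cell types in the chaperone ratios was not tested. In such bulk libraries fewer cells of a type and less RNA per cell cannot be told apart.

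The rest of the folding machinery, 137 genes in 9 lists, was measured in the same way. A mean of at least 1 TPM was reached by 109 of them. Of the 107 whose mean count was 100 or more, 36 were 2-fold or more higher in replicate 1 and 11 lower, with a median log2 ratio of 0.44. Over all genes 33.8% were higher and 15.7% lower by the same rule, the background for these counts and for those of the single lists below.

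Among the other cochaperones 18 of 20 reached 1 TPM, led by Fkbp8, a membrane-anchored immunophilin, with 3526 TPM in replicate 1, against 5274 TPM in replicate 2. That was above every one of the 44 genes. Bag6, a guardian of hydrophobic chains, had 591 TPM in replicate 1, against 1638 TPM in replicate 2. Fnip1 was lowest, with 0.33 TPM in replicate 1, against 0.18 TPM in replicate 2. Like Bag1 and Bag3, Bag6 was at least 2-fold lower in replicate 1, at a ratio of 0.232 (0.226 to 0.239). Other BAG genes of this list did not share that direction. Bag2 and Bag5 were at least 2-fold higher in replicate 1, at ratios of 4.03 and 4.51, but from only 4 and 3 counts in replicate 2. The lower ends of their intervals were 1.56 and 1.53. Bag4 lay within 2-fold, at 0.676.

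The prefoldin and CCT assistant genes, among them the prefoldin subunits that hand actin and tubulin to the ring, reached 1 TPM in 9 of 10 cases. Pfdn1 had 138 TPM in replicate 1, against 244 TPM in replicate 2, Pfdn6 had 285 and 50.3 TPM, and Pdcl3 had 65.1 and 9.65 TPM in the same order. Cct6b, a testis form of the sixth subunit, had 0.45 TPM in replicate 1 and 0 counts in replicate 2. Of the 7 with enough counts 5 were higher in replicate 1 and 1, Pfdn1, lower.

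Other J proteins reached 1 TPM in 22 of 25 cases, led by Dnajc8, Dnajb2 and Dnajc30 at 193, 94.9 and 40.6 TPM in replicate 1 and at 100.1, 103 and 120 TPM in replicate 2, with Dnaja4 lowest. Of the other HSP70 relatives and regulators 2 of 6 did so, and Hspbp1, an exchange factor, led with 70.9 TPM in replicate 1, against 129 TPM in replicate 2, ahead of Hspa2 and Hspbap1, with Hspa12a at 0 in both. Small heat shock proteins stayed scarce: 2 of 9 reached 1 TPM (Hspb11 and Hspb6, with Hspb9 next), and Hspb2, Hspb3, Hspb7, Hspb8, Cryaa and Cryab had 0 counts in both libraries. Of the other heat shock factors none of 3 reached 1 TPM; Hsf4 had 0.70 TPM in replicate 1 and 0 counts in replicate 2, and Hsf3 and Hsf5 had 0 counts in both.

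The other mitochondrial chaperones and proteases reached 1 TPM in 12 of 13 cases, with Clpp, a matrix protease subunit, at 130 TPM in replicate 1, against 178 TPM in replicate 2. Hscb and Lonp1 came next and Grpel2 was lowest, and 10 of the 12 with enough counts lay within 2-fold. Of the other ER chaperones and oxidoreductases 23 of 29 reached 1 TPM. Fkbp2 had 445 TPM in replicate 1, against 162 TPM in replicate 2, Sdf2l1 had 332 and 257 TPM, and Prkcsh, a glucosidase subunit, had 207 and 201 TPM in the same order; Clgn and Uggt2 had 0 counts in both. Of the 23 with enough counts 12 were higher in replicate 1 and 2 lower, with a median log2 ratio of 1.15, against 1.34 in the 8 ER folding genes described first.

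The unfolded protein response and ER degradation genes had a median log2 ratio of -0.29. Of these 22 genes 21 reached 1 TPM. Atf4, a transcription factor of the stress response, had 457 TPM in replicate 1, against 288 TPM in replicate 2. Ppp1r15a, which restarts translation, had 347 and 838 TPM in the same order, and Herpud1, a part of the ER degradation complex, had 184 and 454 TPM. Edem3 was lowest, with 0.62 TPM in replicate 1 and 0 counts in replicate 2. Of the 20 with enough counts 3 were higher in replicate 1 (Ddit3, Derl2, Vcp), 5 lower (Atf6b, Ern1, Edem2, Ufd1l, Nploc4) and 12 within 2-fold.

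Some assignments stay uncertain because the sources used here do not say whether counting used strand. In the later annotation 13 of the 44 genes overlap another protein-coding gene, among them Tcp1 with Mrpl18 and Acat3, Dnaja1 with Smu1, Cct7 with Pradc1, and Hspd1 with Hspe1 over 112 bases. Hspa14 overlaps Gm45902, and its value leaves out the transcripts now given to that gene.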

How the data were processed

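Polyadenylated RNA of 2 megakaryocyte libraries was quantified by the authors per gene and per transcript on mm10 with GENCODE M4, per the deposited file lists; aligner and quantifier: not given in the sources used here. Expected counts, as deposited, are the authors' estimated counts of fragments and need not be whole (3.53% in replicate 1 and 1.43% in replicate 2 were not). The deposited TPM and FPKM are values per effective length and depth, made by the authors, as the column headers name them. The deposited isoform percent was recomputed from transcript TPM, and the deposited posterior spread, a score of the quantifier, was not used.

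Of the deposited rows 43346 Ensembl genes were used; the 26345 others held 15 counts in replicate 1, against 0 in replicate 2, and were left out. Symbols (98.0% matched), GC content and transcript types came from GENCODE M21 on GRCm38, and promoter sequences from RefSeq on GRCm38.p6. Counts were rounded for TMM in edgeR 4.0.16 (over genes whose mean count was 10 or more) and DESeq2 1.42.0 size factors in R 4.3.3. The remaining work ran in Python 3.11.15 with scipy 1.17.1, pandas 2.3.3, numpy 2.4.6 and matplotlib 3.10.9. No test was made. Ratios set a count of 0 to 3 counts, and their calculation was tested on simulated data. Intervals and floors cover counting error only. The alternatives are given with the limits.

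The genes, lists and rules were chosen with earlier results of these data known. Named were all 44 genes, the 3 highest and the lowest gene of each other list, and the megakaryocyte markers, except 2 genes not reported here; further names in the text were chosen after their values were seen.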

Additional observations from a re-analysis of the deposited data

How the results depend on the processing

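No paired analysis was possible because both libraries belong to 1 group. Leaving out a library left the count of genes at 1 TPM between 38 and 42, and of pathway genes between 98 and 110. The CCT quotient ranged from 21.1 to 84.7, the higher value from replicate 2 alone. With total counts 2 genes were lower and the median log2 ratio was 1.48. With at least 50 CPM 5 were higher and the median was 0.29. With the GC trend removed 11 were higher and the median was 0.33. With DESeq2 size factors 19 genes (47.5%) were higher, against 31.4% of all genes, and 7 (17.5%) lower, against 18.6%. With at least 100 counts in replicate 2, 8 of 12 genes kept their dominant transcript. A mean count of at least 10, posterior mean counts and a prior count of 0.5 kept the counts of higher and lower genes within 1.5 times and the median between 0.87 and 1.03. At 5 TPM 36 genes and 85 pathway genes were counted, and FPKM gave a CCT quotient of 23.5. The heat shock factor median was 18.6 TPM, and 15.9 from posterior means and 15.2 per kilobase of the longest transcript; the median of the cytosolic group was 9.37 TPM, and 4.75 per kilobase and 5.83 on coding transcripts. The per-kilobase, coding and GC alternatives were chosen after seeing the data. The cause of these changes was not tested. Leaving out a library gave group medians between 7.44 and 11.3 TPM (cytosolic), 34.3 and 109 (cochaperones), 17.7 and 19.5 (heat shock factors), 0 and 0.77 (Hspb1), 2.19 and 39.4 (J proteins), 9.97 and 26.6 (CCT), 19.4 and 50.2 (mitochondrial) and 27.6 and 107 (ER). Of 44 single mean levels 40 moved by less than 1 SD with posterior means. Under total counts 20 of 40 single ratios left their interval and under DESeq2 size factors 6; no ratio past 2-fold changed direction under these. The depth of replicate 2 limits all ratios of genes with few counts there.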
